A study of Mus musculus with 1 sample.

Results

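The 7 genes described here belong to the defence of mucosal surfaces against microbes: Reg3g, Lcn2, Pigr, Cyba, Duox2, Duoxa2 and Nos2. They were chosen by name, with earlier results of these data known, from the 32285 genes counted in 1 library of single cells from mouse gastric organoids, which are epithelial balls grown in gel. The labels give the cells as epithelial, the genotype as wild type and the treatment as none. Organoids were harvested on day 7 and made into a suspension with trypsin, per the labels' protocols. The labels name no strain, sex, age or number of animals, and with 1 library there was no replicate: every interval below is at 95% and covers counting error only, and no difference between cells was tested.

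Epithelia hold microbes back with secreted proteins, with transported antibody and with reactive molecules. REG3G is a secreted C-type lectin that binds bacterial cell walls, and lipocalin 2 (Lcn2) takes up the siderophores with which bacteria collect iron. The polymeric immunoglobulin receptor (Pigr) carries dimeric IgA and pentameric IgM across the epithelium. Dual oxidase 2 (Duox2) releases hydrogen peroxide at the apical surface and needs its maturation factor, Duoxa2, to leave the endoplasmic reticulum. Cyba encodes p22phox, the membrane partner of several other NADPH oxidases, and Nos2 encodes the inducible nitric oxide synthase. Several of these genes are known to be induced by cytokines or by microbial products rather than to be expressed steadily.

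Of 1991 barcodes, 1892 had at least 500 detected genes and at most 20% mitochondrial counts and were kept. A kept cell had a median of 8512.5 unique molecular identifiers (UMIs, each one counted RNA molecule), with a range of 890 to 47183. The epithelial label was checked against its markers: each of Epcam, Krt8, Krt18, Krt19 and Cdh1 had a UMI in over 50% of cells. The leukocyte markers were mixed. Ptprc and Adgre1 had 1 UMI each, Itgam 0 and Csf1r 13. Cd68 had 196 UMIs in 162 cells, and Cd14 had 429 UMIs in 316 cells. Features of the library touch the results below. Cells carried either of 2 multiplexing tags, CMO301 (1062 cells) or CMO302 (830 cells), which the labels do not explain. In addition, 50 cells held a UMI of a Y-linked gene (Ddx3y, Uty, Eif2s3y or Kdm5d), and 32 of these fell into a single cluster of 58 cells, cluster 7. The labels do not say whether the library holds cells of more than 1 animal, so for the comparisons of cluster 7 and of cells with a Y-linked UMI a difference between animals cannot be told apart from one between cell states.

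The genes lie at separate loci apart from Duox2 and Duoxa2, which are neighbours on chromosome 2. In GENCODE M21 (GRCm38), Duox2 spans 122279247 to 122298449 on the minus strand and Duoxa2 spans 122298900 to 122302885 on the plus strand, so both are transcribed away from each other. Their RefSeq start sites are 672 bases apart. Reg3g lies on chromosome 6 at 78466269 to 78468872 (minus strand), Lcn2 on chromosome 2 at 32384633 to 32388252 (minus strand) and Pigr on chromosome 1 at 130826684 to 130852249 (plus strand). Cyba lies on chromosome 8 at 122424776 to 122432930 (minus strand) and Nos2 on chromosome 11 at 78920787 to 78960254 (plus strand). The 250 bases upstream of the start site are shown for Lcn2, the member in most cells, for Reg3g and Pigr, since most cells with Reg3g also had Pigr, and for the Duox2 and Duoxa2 pair. They were taken from RefSeq on GRCm38.p6 and are written 5′ to 3′ on the gene's strand, with capitals for matches to the motifs named below. The Lcn2 window lies wholly, and the Duox2 window for the most part, inside the GENCODE span of the gene given above. RefSeq and GENCODE thus place these starts differently, and by GENCODE these windows are largely not upstream sequence.
Lcn2 (chr2:32387740-32387989, minus strand): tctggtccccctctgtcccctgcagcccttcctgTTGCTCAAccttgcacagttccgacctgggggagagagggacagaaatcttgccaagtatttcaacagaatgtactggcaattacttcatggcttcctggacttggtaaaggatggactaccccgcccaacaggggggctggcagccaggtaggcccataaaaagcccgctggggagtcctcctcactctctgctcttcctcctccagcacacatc
Reg3g (chr6:78468875-78469124, minus strand): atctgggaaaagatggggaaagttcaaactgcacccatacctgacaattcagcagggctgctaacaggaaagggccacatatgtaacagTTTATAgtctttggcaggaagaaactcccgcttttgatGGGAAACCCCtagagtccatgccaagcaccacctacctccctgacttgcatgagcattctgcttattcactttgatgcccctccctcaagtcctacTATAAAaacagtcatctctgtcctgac
Pigr (chr1:130826434-130826683, plus strand): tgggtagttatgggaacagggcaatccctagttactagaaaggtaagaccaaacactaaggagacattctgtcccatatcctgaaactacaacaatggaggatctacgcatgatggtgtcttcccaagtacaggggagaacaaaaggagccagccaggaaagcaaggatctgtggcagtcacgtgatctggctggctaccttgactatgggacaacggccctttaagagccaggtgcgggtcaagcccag
Duox2 (chr2:122298228-122298477, minus strand): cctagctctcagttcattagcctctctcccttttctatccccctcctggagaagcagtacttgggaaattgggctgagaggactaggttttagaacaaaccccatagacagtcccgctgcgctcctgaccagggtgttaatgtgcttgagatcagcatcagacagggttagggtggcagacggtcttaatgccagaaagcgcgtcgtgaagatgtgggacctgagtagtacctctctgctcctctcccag
Duoxa2 (chr2:122298650-122298899, plus strand): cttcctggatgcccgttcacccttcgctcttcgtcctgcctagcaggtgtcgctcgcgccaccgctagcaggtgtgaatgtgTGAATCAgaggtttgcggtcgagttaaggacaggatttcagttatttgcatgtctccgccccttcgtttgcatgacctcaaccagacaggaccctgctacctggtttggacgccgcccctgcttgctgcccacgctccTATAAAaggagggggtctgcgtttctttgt

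Both strands of the 250 bases were searched for 5 motifs: a promoter box spelled TATAAA, a C/EBP motif spelled TTGCNNAA, a STAT motif spelled TTCNNNGAA, an AP-1 motif spelled TGANTCA, and the kappaB consensus. The 6 members with an entry in the promoter table were Pigr, Lcn2, Duox2, Duoxa2, Reg3g and Cyba. Reg3g held TATAAA at -27 to -22 from its start, a second one on the opposite strand at -161 to -156, and the kappaB consensus at -123 to -114, which reads as a match on both strands. Duoxa2 held TATAAA at -30 to -25 and an AP-1 motif at -168 to -162. Lcn2 held a C/EBP motif at -216 to -209 from its RefSeq start, which is inside the GENCODE span of the gene. No listed motif was matched in this window of Pigr, Duox2 or Cyba, and that of Duox2 lies mostly inside its GENCODE span. Among all 32851 promoters of the table, 12.4% held TATAAA, 9.56% TTGCNNAA, 7.02% TTCNNNGAA, 6.75% TGANTCA and 3.90% the kappaB consensus, so each motif occurs in many promoters, and a match is a run of letters rather than a measured binding site.

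None of the 7 genes was broad, taken as a UMI in at least 50% of cells. Of 10132 genes with at least 50 UMIs, 13.1% were broad. Lcn2 was intermediate, with a UMI in 36.4% of cells (689 cells, interval 34.2% to 38.6%). The other 6 were in under 10% of cells. Of the 10132 genes, 35.9% were in under 10% of cells. Nothing is read from the members' count against it, since Duox2, Duoxa2 and Nos2 had too few UMIs to be in many cells, and Reg3g and Cyba reached 50 UMIs only through 1 cluster, described below. Pigr was found in 156 cells (8.25%, interval 7.04% to 9.58%), Cyba in 39 (2.06%, interval 1.47% to 2.81%), Reg3g in 20 (1.06%, interval 0.647% to 1.63%), Duox2 in 15 (0.793%, interval 0.444% to 1.30%) and Duoxa2 in 14 (0.740%, interval 0.405% to 1.24%). Nos2 was found in no cell, which allows a share of cells with a UMI of up to 0.159% by a limit of 3 counts (exact upper limit 0.195%). The intervals of Reg3g, Duox2 and Duoxa2 overlap, as do those of Cyba and Reg3g, so the order within each of these sets is not resolved at this depth. The interval of Cyba lies above those of Duox2 and Duoxa2, and Lcn2 and Pigr stand clear of the rest and of each other.

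In UMIs per 1000000 gene UMIs, summed over cells (CPM), the order of levels was similar. Lcn2 stood at 166 CPM (3345 UMIs, interval 161 to 172) and Pigr at 18.5 CPM (372 UMIs, interval 16.7 to 20.5). Cyba stood at 5.42 CPM (109 UMIs, interval 4.45 to 6.54) and Reg3g at 4.67 CPM (94 UMIs, interval 3.78 to 5.72). Duox2 was at 1.24 CPM (25 UMIs) and Duoxa2 at 0.845 CPM (17 UMIs). Each UMI marks the 3′ end of 1 molecule, so these levels do not depend on gene length, although capture can differ between genes. Reg3g and Cyba had overlapping intervals on this scale as well, although Reg3g was found in fewer cells.

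A gene of low level is found in few cells however it is spread, so each share was set against the share that the same number of UMIs would reach if every cell had the same level at its own depth. Reg3g reached 0.220 of that even-spread share, Cyba 0.372, Pigr 0.478 and Lcn2 0.486. These 4 members with at least 50 UMIs lay under 0.5, as did 0.523% of the 10132 genes. Reg3g and Cyba reached 50 UMIs only through cluster 7, the cluster where they were highest, with 35 and 14 UMIs outside it, so nothing is read from the count of 4. Duox2 (0.606) and Duoxa2 (0.829) had 25 and 17 UMIs, too few for this ratio to describe their spread. After every cell was thinned to 3000 UMIs, Lcn2 stood at 0.441, Pigr at 0.680, Reg3g at 0.558 and Cyba at 0.542, the last 2 on under 50 UMIs, so of these 4 only Lcn2 lay under 0.5. Without cluster 7 the ratio was 0.232 for Reg3g, 0.496 for Lcn2, 0.753 for Pigr and 0.933 for Cyba, with Reg3g and Cyba on 35 and 14 UMIs; Reg3g and Lcn2 lay under 0.5 there.

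**Figure D1:**
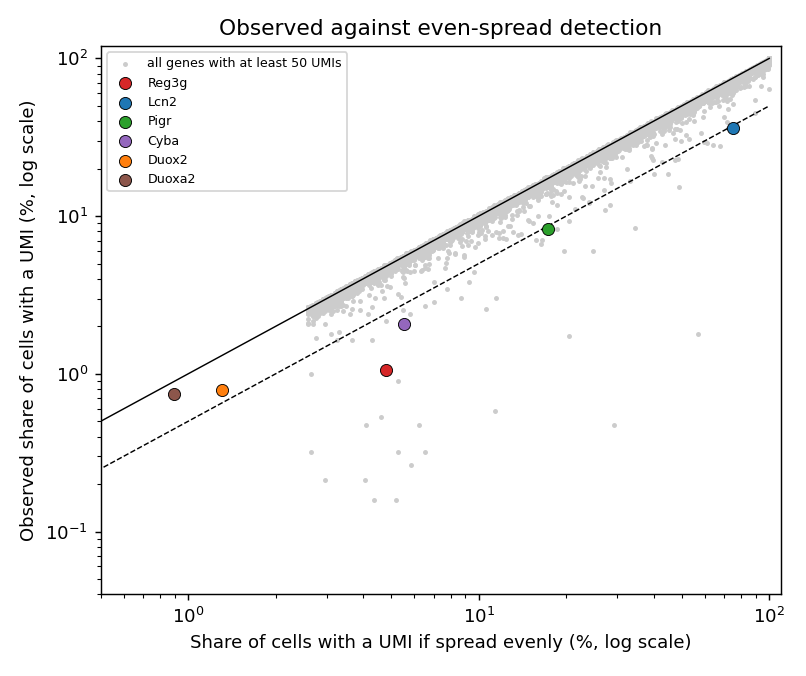
Share of cells with a UMI of a gene (vertical axis, percent, log scale) against the share that an even spread of its UMIs would give (horizontal axis, percent, log scale), for the 6 detected members in colour and all genes with at least 50 UMIs in grey. The solid line marks equality and the dashed line 0.5 of it; Reg3g, Cyba, Pigr and Lcn2 lie below the dashed line, and Duox2 and Duoxa2 lie between the lines.

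A large part of the UMIs of the 4 more abundant members lay in a few cells. For Lcn2, 40 cells held 50% of all UMIs. The same share was held by 16 cells for Pigr, 6 for Cyba and 5 for Reg3g. For Duox2 and Duoxa2, with 25 and 17 UMIs, it was held by 4 and 6 cells, but so few UMIs lie in few cells at any spread. The 5% of cells with the most UMIs of the gene held 67.3% of the UMIs of Lcn2 and 83.6% of those of Pigr, compared with a median of 43.2% over all genes with at least 50 UMIs. The highest count in any cell was 208 for Lcn2, 35 for Pigr, 14 for Reg3g, 11 for Cyba, 7 for Duox2 and 2 for Duoxa2.

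**Figure D2:**
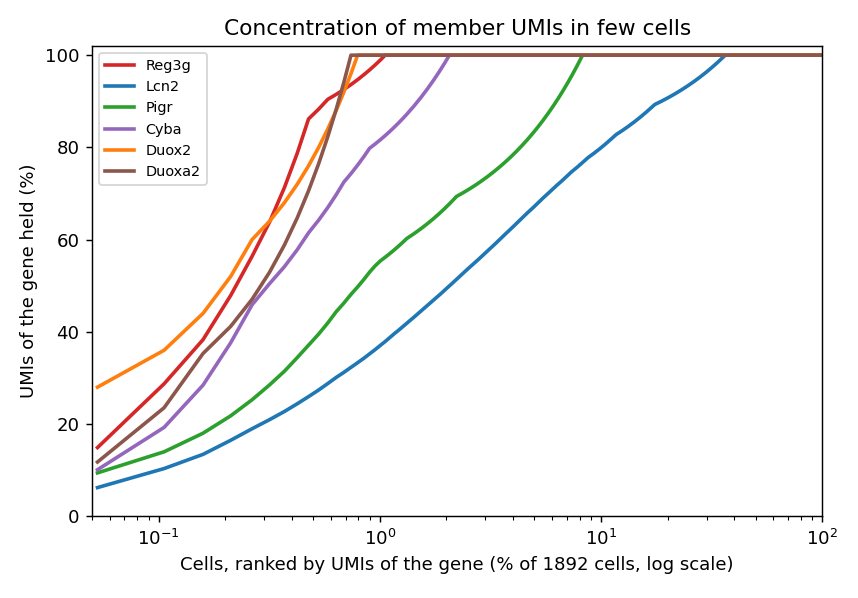
Share of each gene's UMIs (vertical axis, percent) held by the cells with the most of them, ranked from the left (horizontal axis, percent of 1892 cells, log scale). The curves of Reg3g, Duox2, Duoxa2 and Cyba reach 100% at between 0.740% and 2.06% of cells, that of Pigr at 8.25% and that of Lcn2 at 36.4%.

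Lcn2 combined many cells at 1 UMI with a few cells at very high counts. Of the 689 cells with Lcn2, 359 held 1 UMI, 192 held 2 to 4, 108 held 5 to 19 and 30 held 20 or more. Those 30 cells, 1.59% of all, held 45.1% of the UMIs. Cells with Lcn2 were deeper than cells without it (medians of 10895 and 7780 UMIs), and after thinning to 3000 UMIs the share of cells with Lcn2 was 17.9%. Free RNA in the droplets can give 1 UMI to a cell that does not express a gene. No population that should lack Lcn2 or another member was identified among these cells, so how many cells with 1 UMI it accounts for was not tested for any of them.

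The cells were grouped into 7 clusters without use of the 7 genes or of the wider list of defence genes described further below. Lcn2 was found in every cluster, in 19.5% to 54.7% of cells. The level was 291 CPM in cluster 3 (342 cells, led by Pcolce, Hspb1, Plscr2, Gmpr2 and Lcn2) and at 259 CPM in cluster 4 (338 cells, led by Cxcl2, Cxcl5, Mgat4c, Fam107a and Trpm6). Lower levels were 150 CPM (cluster 6), 110 CPM (cluster 2), 69.1 CPM (cluster 1) and 57.2 CPM (cluster 5). Cluster 7 had the highest level, 346 CPM (interval 310 to 385), which is 2.20 times that of all other cells (interval 1.96 to 2.46). That rank rests on 1 cell, which held 208 of the 337 Lcn2 UMIs of the cluster: without it cluster 7 stood at 138 CPM, and cluster 3 was the highest, at 2.16 times the other cells. The order of clusters 3 and 4 rests on single cells as well. Without its own richest cell cluster 3 stood at 242 CPM, and cluster 4 without its own at 237 CPM. Of the 30 cells with at least 20 UMIs, 13 were in cluster 4 and 7 in cluster 3, and each of the other clusters held 1 to 3.

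**Figure D3:**
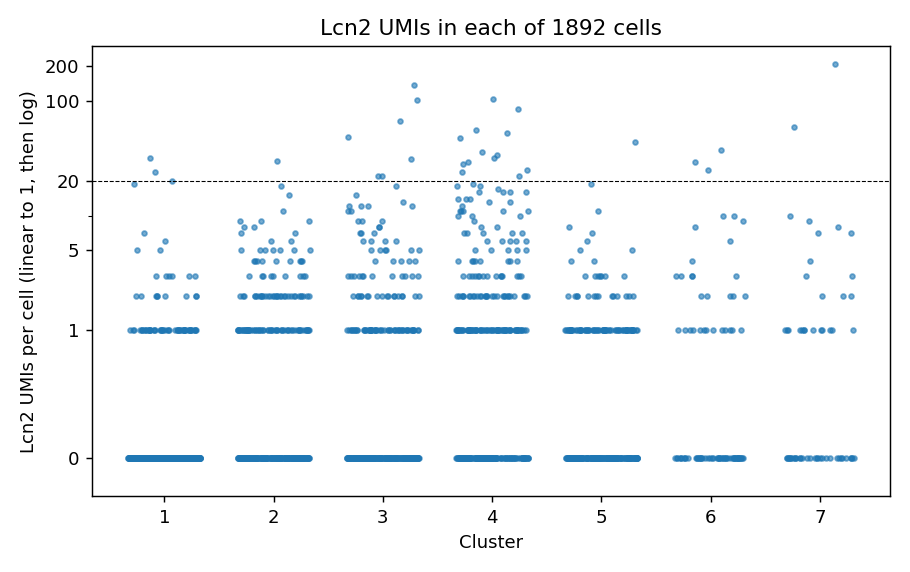
Lcn2 UMIs in every cell (vertical axis, linear to 1 and then log scale), by cluster (horizontal axis, 7 clusters); each point is 1 of 1892 cells and the dashed line marks 20 UMIs. Points above the line are in every cluster, with 13 of 30 in cluster 4 and the highest, 208, in cluster 7.

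The genes whose levels followed Lcn2 most closely across cells were neutrophil chemokines and a neighbour. Pearson's r on ln(UMIs per 10000 + 1) over 1892 cells was 0.391 for Cxcl5, 0.387 for 1110008P14Rik, 0.323 for Cxcl2, 0.306 for Cxcl1 and 0.262 for Ltf, which encodes lactoferrin, another iron-binding defence protein. Without cluster 7 these values were 0.395, 0.385, 0.318, 0.304 and 0.252. The cells share 1 library and differ in depth, and the values are a description. 1110008P14Rik lies 2694 bases from Lcn2 on the same strand (chromosome 2, 32377097 to 32381938), and it had a UMI in 87.2% of cells with Lcn2 and in 66.3% of the others. With 1000 variable genes in place of 2000, the clustering set apart 66 cells, 44 of them from cluster 4, 18 from cluster 3 and none from cluster 7. In these 66 cells Lcn2 stood at 1421 CPM, against 114 CPM in the others (12.5-fold, interval 11.6 to 13.4), and was found in 84.8% of cells. Their leading genes were Ccl20 (78.9 CPM), Cxcl2 (712 CPM), Cxcl5 (938 CPM), Cxcl1 (516 CPM) and Lcn2. Pigr stood at 40.7 CPM in them and 17.6 CPM in the others (2.32-fold) and had a UMI in 22.7% of them. Reg3g, Cyba, Duox2 and Duoxa2 each had a UMI in 1.52% of them.

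The other 5 detected genes were each highest in cluster 7. This cluster held 3.07% of cells and 4.84% of gene UMIs, and its leading genes besides Cyba were Gm3776, Gsta1, Sptssb and Pgc. It carries no cell type name here, because among its 10 leading genes the fixed markers were 1 of pit cells (Tff1) and 1 of chief cells (Pgc). Its cells were deep (median 14529.5 UMIs, compared with 8308 in the others), 67.2% were called cycling, and 32 of 58 held a Y-linked UMI. For Xist, the RNA of X inactivation, 27.6% of its cells and 78.3% of the others held a UMI. Epithelial markers summed to 4312 CPM in cluster 7 and 4124 CPM in the others. The 4 pit markers summed to 5362 CPM and 173 CPM, but most of that came from a pair of cells. The cell with the most Tff1, the most abundant of the 4, held 58.8% of the pit marker UMIs of cluster 7. Without it the sum was 2320 CPM, and without the 2 cells with the most Tff1 it was 724 CPM. Tff1 had a UMI in 58.6% of the cells of cluster 7 and in 54.5% of the others, and Muc5ac in 6.90% and 2.24%. Of 6 leukocyte markers 4, including Ptprc, were at 0 in cluster 7, and the list summed to 35.9 CPM there against 31.6 CPM elsewhere, and in cluster 7 all of it was Cd14 and Cd68. All 4 neutrophil markers, all 4 fibroblast markers and all 3 endothelial markers were at 0 in cluster 7.

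Elsewhere Cyba stood at 0.731 CPM, compared with 97.5 CPM in cluster 7 (133-fold, interval 75.7 to 253). Pigr stood at 209 CPM and 8.78 CPM (23.8-fold, interval 19.3 to 29.4), and Reg3g at 60.5 CPM and 1.83 CPM (33.1-fold, interval 21.4 to 51.8). Duox2 stood at 15.4 CPM and 0.522 CPM (29.5-fold, interval 12.4 to 73.3) and Duoxa2 at 8.21 CPM and 0.470 CPM (17.5-fold, interval 5.86 to 51.0). The ratio in the highest cluster was at least 2-fold for Reg3g, Lcn2, Pigr and Cyba, and for 17.8% of the 10132 genes. Because Reg3g and Cyba entered that set through cluster 7 itself, the count is a description, and at a coarser clustering (resolution 0.3) Lcn2 was at 1.56-fold. The cluster held 87.2% of the UMIs of Cyba, 62.8% of those of Reg3g, 60% of those of Duox2, 54.8% of those of Pigr and 47.1% of those of Duoxa2. At 3000 UMIs per cell, which sets the depths equal, 34.5% of its cells had Pigr, 17.2% Cyba and 12.1% Reg3g, and in each of the other clusters these shares were at most 3.56%, 1.15% and 0.297%.

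**Figure D4:**
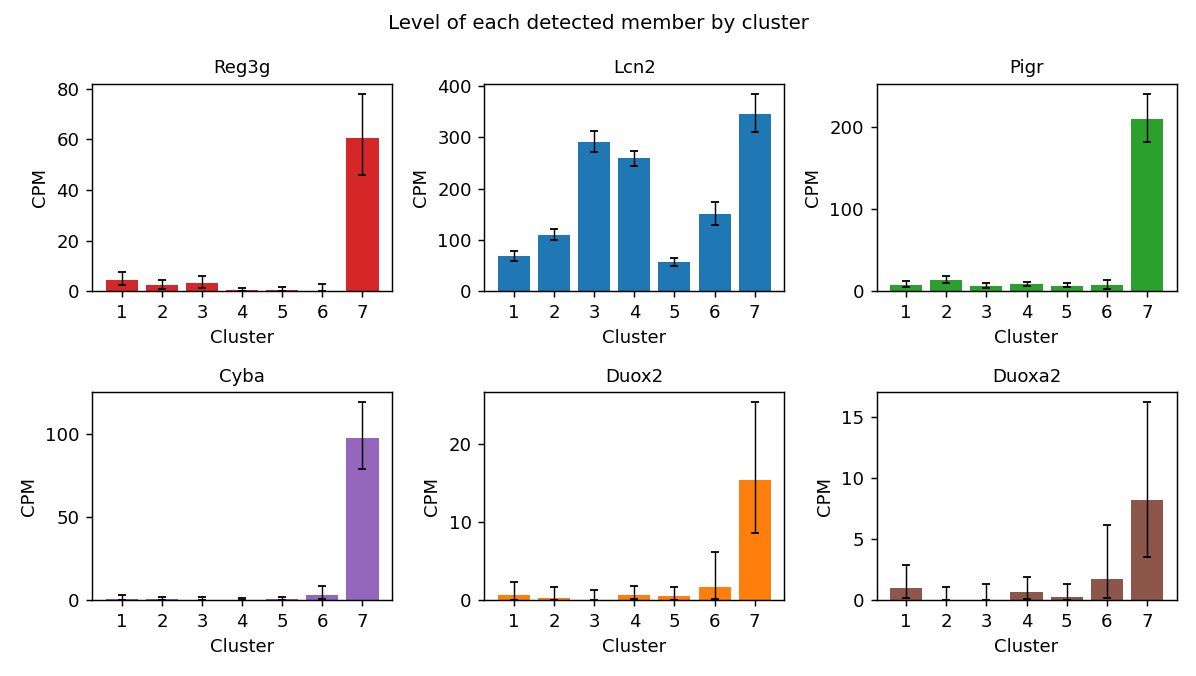
Level of each detected gene (vertical axes, CPM, with a separate scale in each panel) in 7 clusters (horizontal axes). Bars are summed UMIs per 1000000 gene UMIs and error bars are exact 95% Poisson intervals, which cover counting error only; Reg3g, Pigr, Cyba, Duox2 and Duoxa2 peak in cluster 7, and Lcn2 is also high in clusters 3 and 4.

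Counting Reg3g, Pigr, Cyba, Duox2 and Duoxa2 together, 190 of 1892 cells (10.0%) had a UMI of at least 1 of them. In cluster 7 this was 46 of 58 cells (79.3%), and elsewhere 144 of 1834 (7.85%). At least 2 of the 5 were found in 31 of 58 cells of cluster 7 and in 9 of 1834 others. No cell had all 5. The most common sets in cluster 7, taken with Lcn2, were Pigr alone, Pigr with Cyba, and Reg3g with Lcn2 and Pigr, each in 6 cells, and 8 of its cells had none of the 7 genes.

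Most cells with Reg3g also had Pigr, although most cells with Pigr had no Reg3g (18 of 156 did). Of 20 cells with Reg3g, 18 also had Pigr (90%, interval 68.3% to 98.8%), compared with 7.37% of cells without Reg3g. Within cluster 7, all 12 cells with Reg3g had Pigr, and 54.3% of its other cells did. Outside cluster 7, 6 of 8 cells with Reg3g had Pigr (75%, interval 34.9% to 96.8%), against 6.19% of the rest. After thinning, 8 of 10 cells with Reg3g had Pigr, against 2.90% of the others. Cells rich in Reg3g were not only in cluster 7: of the 9 cells with at least 5 Reg3g UMIs, which held 86.2% of its UMIs, 6 were in cluster 7 and 1 each in clusters 1, 2 and 3. The cell with the most, in cluster 1, held 14 UMIs of Reg3g, 14 of Pigr and 19 of Lcn2, and all 9 held at least 2 UMIs of Pigr.

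Pearson's r between Reg3g and Pigr was 0.526 over 1892 cells, 0.390 without cluster 7 and 0.606 within it. Each was the gene most like the other. The next genes were shared as well: Gkn3, which encodes a gastrokine, at 0.416 with Reg3g and 0.394 with Pigr, and Gm42047 at 0.352 and 0.326. Reg3g was further followed by Cxcl15 (0.270) and Ifitm3 (0.248), and Pigr by Sult1c2 (0.303) and Ifitm3 (0.286). Without cluster 7 the values with Reg3g were 0.326 for Gkn3, 0.128 for Gm42047, 0.199 for Cxcl15 and 0.0511 for Ifitm3. Those with Pigr were then 0.141 for Gkn3, 0.0406 for Gm42047, 0.00485 for Sult1c2 and 0.0991 for Ifitm3. Outside cluster 7, 119 cells held 168 UMIs of Pigr, with a median of 1 UMI in these cells, and 4 of the 18 cells with at least 5 Pigr UMIs were there.

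**Figure D5:**
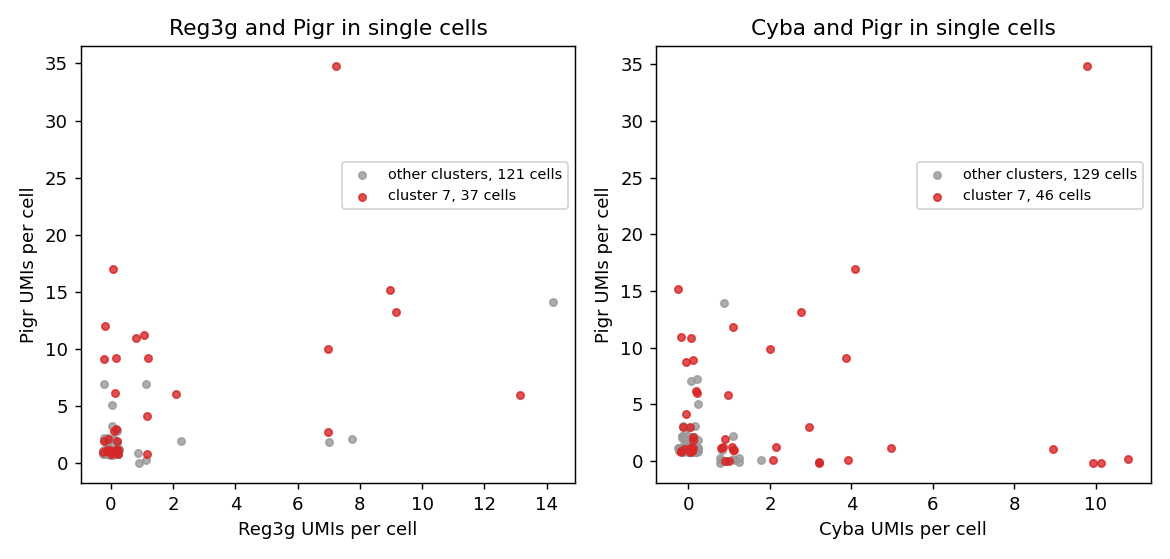
Pigr UMIs per cell (vertical axes) against Reg3g (left) or Cyba (right) UMIs per cell (horizontal axes), for cells with a UMI of either gene of the panel and with points moved by up to 0.25 to show overlaps. Cells of cluster 7 (red, 37 on the left and 46 on the right) and of other clusters (grey, 121 and 129) are shown; 18 of 20 cells with Reg3g also hold Pigr, whereas 5 of the 6 cells with at least 5 Cyba UMIs hold at most 1 Pigr UMI.

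Among the 7 genes, Cyba had the largest share of its UMIs in cluster 7, and within that cluster Cyba was unevenly spread. It had a UMI in 26 of 58 cells, and all 6 cells with at least 5 UMIs of Cyba were in cluster 7 and held a Y-linked UMI. In the 32 cells of cluster 7 with a Y-linked UMI Cyba stood at 146 CPM (interval 116 to 181, 19 cells), and in the other 26 at 31.6 CPM (interval 16.8 to 54.1, 7 cells). Across all cells it stood at 107 CPM in the 50 cells with a Y-linked UMI and at 1.29 CPM in the others, a contrast that came mostly from cluster 7. Outside cluster 7 Cyba stood at 9.09 CPM (interval 1.10 to 32.8) in the 18 cells with a Y-linked UMI, from 2 UMIs in 1 cell. In the cells there without a Y-linked UMI it stood at 0.634 CPM (interval 0.328 to 1.11). The gene most like Cyba across cells was the Y-linked Eif2s3y (r = 0.490), followed by Gsta2 (0.400), Mcts2 (0.378), Gsta1 (0.376) and Aldh3a1 (0.354). Without cluster 7 these were 0.043, 0.075, -0.0031, 0.026 and 0.058. Gsta1, a glutathione transferase, stood at 2042 CPM in cluster 7 and 34.2 CPM elsewhere, but its copies Gsta2 and Gm3776 have similar sequences, and reads may be split among them.

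Cyba and Reg3g had a UMI in the same cell in 5 cells. In cluster 7, 3 of 12 cells with Reg3g had Cyba (25%, interval 5.49% to 57.2%), compared with 50% of its cells without Reg3g (interval 34.9% to 65.1%), and these intervals overlap. Of 37 cells of cluster 7 with Pigr, 17 had Cyba (45.9%), and of 21 without Pigr 42.9% did. Outside cluster 7, Cyba was at 14 UMIs in 13 cells, with at most 2 in a cell. There, 2 of 8 cells with Reg3g had Cyba (25%, interval 3.19% to 65.1%), against 0.602% of the rest (interval 0.301% to 1.08%). Of 119 cells with Pigr outside cluster 7, 3 had Cyba (2.52%, interval 0.523% to 7.19%), against 0.583% of those without (interval 0.280% to 1.07%), and these intervals overlap. Reg3g stood at 51.5 CPM (interval 34.5 to 73.9) in the cells of cluster 7 with a Y-linked UMI and at 73.0 CPM (interval 49.2 to 104) in those without, and these intervals overlap. Pigr stood at 259 CPM with and 141 CPM without (intervals 219 to 305 and 107 to 182).

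Duox2 and Duoxa2 were rare, and too few UMIs were counted to describe their spread closely. Duox2 had 15 of its 25 UMIs in 6 cells of cluster 7, and 7 of these were in the same cell that held 208 UMIs of Lcn2, 35 of Pigr, 10 of Cyba and 7 of Reg3g. That cell had 38271 gene UMIs and was not called a doublet, and without it Duox2 was 16.4-fold higher in cluster 7 than elsewhere (interval 5.61 to 46.0). Duoxa2 had 8 of its 17 UMIs in 7 cells of cluster 7. The oxidase and its maturation factor were found together in 3 cells, all in cluster 7, which is 20% of cells with Duox2 (interval 4.33% to 48.1%) and 21.4% of cells with Duoxa2. Among cells without Duox2, 0.586% had Duoxa2. Outside cluster 7, none of 9 cells with Duox2 had Duoxa2 (upper limit of the exact interval 33.6%), and after thinning 2 cells had Duox2 and neither had Duoxa2. Cells with Duox2 had a median depth of 16962 UMIs (8418 in cells without it) and cells with Duoxa2 one of 17296.5 (8473 in cells without it). Duoxa2 overlaps Duoxa1, on the opposite strand, by 695 bases, and Duoxa1 had 1 UMI.

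Nos2 had no UMI in 1892 kept cells or in the 99 barcodes that the filter removed. With 0 UMIs, a level of up to 0.149 CPM is allowed. The other nitric oxide synthases were Nos1, also at 0 UMIs, and Nos3, the endothelial form, at 13.6 CPM in 227 cells. Genes that supply the substrate and the cofactor of the enzyme were found: the arginine transporter Slc7a1 at 37.6 CPM, argininosuccinate lyase (Asl) at 20.2 CPM and GTP cyclohydrolase 1 (Gch1), which starts the synthesis of tetrahydrobiopterin, at 18.6 CPM.

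The levels differed between the 2 tags for some of the genes. Reg3g stood at 6.45 CPM (interval 5.04 to 8.12) in cells with CMO301 and at 2.46 CPM (interval 1.54 to 3.72) in cells with CMO302, although the shares of cells were 1.04% and 1.08%. Lcn2 stood at 145 CPM (interval 138 to 152) and 193 CPM (interval 184 to 202), and Pigr at 21.1 CPM (interval 18.5 to 24.0) and 15.2 CPM (interval 12.7 to 18.0). The intervals of Cyba (5.73 CPM and 5.03 CPM), Duox2 (1.70 CPM and 0.670 CPM) and Duoxa2 (1.07 CPM and 0.559 CPM) overlapped. Of the 9 cells richest in Reg3g, 7 carried CMO301. What separates the tags is not stated in the labels.

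By cell cycle score, 441 cells were called cycling. In these, Reg3g stood at 14.5 CPM, compared with 1.80 CPM in the other cells (8.03-fold), Pigr at 42.9 CPM against 11.3 CPM (3.79-fold) and Lcn2 at 228 CPM against 148 CPM (1.54-fold). Cyba stood at 11.6 CPM against 3.60 CPM (3.22-fold). When cells with Mki67 or Top2a were taken as cycling, the ratio was 5.12 for Reg3g, 2.23 for Pigr, 1.15 for Lcn2 and 2.11 for Cyba. Without cluster 7, it was 1.18 for Reg3g and 1.24 for Pigr, 1.38 for Lcn2 and 5.30 for Cyba, the last on 14 UMIs. For Duox2 (2.27-fold, interval 0.912 to 5.40) and Duoxa2 (2.38-fold, interval 0.770 to 6.94) the interval of the ratio held equality. Without cluster 7, Duox2 was at 0.994 (interval 0.103 to 4.98) and Duoxa2 at 4.97 (interval 1.07 to 25.04), and with cycling cells called by a UMI of Mki67 or Top2a Duoxa2 was at 0.772 (interval 0.213 to 2.36).

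A wider list of 87 genes of the same systems, in 7 roles, places the 7 genes among their partners. The table held 86 of them. Of these, 21 had no UMI, 38 had at least 50 UMIs and 6 were broad. Among the 38, 5 were at least 2-fold higher in 1 cluster, compared with 17.8% of the 10132 genes, and 2 lay under 0.5 of the even-spread share, compared with 0.523%. Of the 5, Lyz2 (80 UMIs) and Ass1 (62 UMIs) reached 50 UMIs only through the cluster where they were highest. Lyz2 is also among the 2, so nothing is read from either count. Among secreted antimicrobial proteins the highest levels were those of Wfdc2, a whey acidic protein family member, at 4677 CPM and in 1891 of 1892 cells, Ltf at 311 CPM in 853 cells and Dmbt1, a scavenger receptor-like mucosal glycoprotein, at 20.2 CPM in 157 cells. Reg3b, the close relative of Reg3g, had 2 UMIs. Jchain, which joins the antibodies that Pigr carries, had 2 UMIs, and Slc22a17, described as a receptor for lipocalin 2, had 33, and Bdh2 of the same list had 8. Fcgrt, the neonatal Fc receptor, had 21 UMIs.

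Of the oxidase genes, Duox1 had 0 UMIs. The catalytic subunits that p22phox stabilises had few UMIs or none: Nox1 had 7 UMIs, and Cybb and Nox4 had 0. The Nox1 organiser Noxo1 had 39 UMIs and the activator Noxa1 had 7. Rac1, a small GTPase with many roles beyond these oxidases, stood at 295 CPM in 84.6% of cells, and Cybc1, a chaperone of the p22phox complex, at 5.27 CPM in 104 cells. Among receptors and sensors the highest were Tnfrsf1a (25.6 CPM), Ifngr1 (24.95 CPM) and Ltbr (21.7 CPM), each in 379 to 422 cells and at 0.963 to 1.01 of an even spread over cells. Ifngr1 was nevertheless 2.42-fold higher in cluster 7 than in all other cells (56.4 CPM, and 15.3 to 29.8 CPM in the other clusters), the only one of these receptors and sensors among the 5 genes at least 2-fold higher in a cluster. Of the other 4, Ang and Dmbt1 were highest in cluster 7, Lyz2 in cluster 2 and Ass1 in cluster 1. Lyz2 had a UMI in only 9 cells, and a single cell held 53 of its 80 UMIs, so its level in cluster 2 came mostly from that cell. Among transcription factors and regulators the highest were Cebpb (183 CPM), Nfkbiz (136 CPM) and Elf3 (94.2 CPM), all in over 50% of cells.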

How the data were processed

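Single-cell transcriptomes of 1 library were analysed. The deposited matrix holds UMI counts per gene and barcode, not normalized by the authors; Cell Ranger 6.1.2 and GRCm38/mm10 are named in the submitters' processing notes. The 12 multiplexing tags were left out of all totals. Cells with at least 500 genes and at most 20% mitochondrial UMIs were kept. Scrublet called 12 doublets (0.634%), which were kept, as were cells with Y-linked UMIs. From the deposited counts, CPM with exact Poisson intervals, shares with exact Clopper-Pearson intervals and ratios with exact conditional binomial intervals were computed (scipy 1.17.1), at 95%. Shares were also computed after thinning to 3000 UMIs (1835 cells). Clusters came from scanpy 1.11.5 and leidenalg 0.10.2 (2000 variable genes, 30 components, 15 neighbours, resolution 0.6), without the 7 genes, the wider list, cell cycle, sex-linked and mitochondrial genes. A zero count is given the limit of 3 counts.

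Named genes are the 7 members, the 3 highest genes of each role of the wider list with the direct partners, up to 5 genes most like a member with at least 50 UMIs (r at least 0.2), and the 5 leading genes of clusters in which a member was highest; the genes of the 66-cell cluster and the neighbour genes were added after their values were seen. The members and lists were chosen with earlier results of these data known. Alternatives changed the cell filter, doublets, tags, thinning and clustering. The computations were tested on simulated data.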

Additional observations from a re-analysis of the deposited data

Results flagged for a closer look

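The cell filter removed 99 barcodes with 118582 gene UMIs, and these were not used in the report's comparisons. They held 12 UMIs of Lcn2, which is 101 CPM (interval 52.3 to 177), compared with 166 CPM in kept cells. They also held 4 UMIs of Pigr, which is 33.7 CPM (interval 9.19 to 86.4), compared with 18.5 CPM in kept cells. Both counts lie above the limit of 3 that a count of 0 allows, and neither interval excludes the level in kept cells.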

How the results depend on the processing

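Of 235 values recomputed over 36 results and 22 other settings, 169 stayed within the counting interval of the value reported (or, for counts of members, within 1.5 times of it) and 66 moved out of it. No ratio whose interval excluded equality turned its direction. The ratio of cycling to other cells, whose interval held equality, passed below 1 for Duoxa2 with cycling called by Mki67 or Top2a (0.772, from 2.38) and for Duox2 without cluster 7 (0.994, from 2.27). No paired analysis was possible because only 1 library was analysed. The absence of a broad member and the 6 members in under 10% of cells held in every setting run for them. The 4 members at least 2-fold higher in a cluster became 3 at resolution 0.3, where Lcn2 fell below, and were 4 in the other settings of the clustering. Stricter or no cell filters and removal of doublets moved no value. The omission of cluster 7, of its cell with the most Lcn2 UMIs, of the 1 or 2 cells with the most Tff1 and of cells over 3 times the median depth was chosen after the data had been seen.

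Thinned to 3000 UMIs, shares of cells were 0.545% for Reg3g, 17.9% for Lcn2, 3.32% for Pigr, 0.763% for Cyba, 0.109% for Duox2 and 0.272% for Duoxa2. Even-spread ratios were then 0.558 for Reg3g, 0.441 for Lcn2, 0.680 for Pigr and 0.542 for Cyba, Reg3g and Cyba at under 50 UMIs, and 1 of 2 members tested lay under 0.5. The top 5% of cells then held 72.4% of Lcn2 UMIs. For Pigr this was 100%, which is fixed in advance where only 3.32% of cells hold the gene. Of the cells with Duox2, 0% then had Duoxa2. Without cluster 7, levels were 1.83 CPM for Reg3g, 157 for Lcn2, 8.78 for Pigr, 0.731 for Cyba, 0.522 for Duox2 and 0.470 for Duoxa2. Shares were then 0.436% for Reg3g, 6.49% for Pigr, 0.709% for Cyba and 0.382% for Duoxa2. Even-spread ratios were 0.753 for Pigr and 0.933 for Cyba, and 1 of 2 tested lay under 0.5. Cycling over other cells then gave 1.18 for Reg3g, 1.38 for Lcn2, 1.24 for Pigr and 5.30 for Cyba.

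Without cells holding a Y-linked UMI, levels were 3.36 CPM for Reg3g, 154 for Lcn2, 11.7 for Pigr, 1.29 for Cyba and 0.672 for Duox2. The share of cells with Cyba was then 1.03%, even-spread ratios were 0.658 for Pigr and 0.767 for Cyba, and 2 of 3 tested lay under 0.5. Cells with CMO301 alone gave 6.45 CPM for Reg3g, 145 for Lcn2 and 21.1 for Pigr. Cells with CMO302 alone gave 2.46 CPM for Reg3g, 193 for Lcn2, 15.2 for Pigr and 0.670 for Duox2, with Duoxa2 in 0.361% of cells and 1 of 2 tested under 0.5. As a mean of each cell's own CPM, Lcn2 was at 176, Pigr at 14.7, Cyba at 4.23 and Duox2 at 0.669, and by cell CPM the top 5% held 88.6% of Pigr. Without its richest cell Lcn2 was at 156 CPM. The pit marker sum of cluster 7 was 2320 and 724 CPM without the 1 and the 2 cells with the most Tff1.

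At resolution 0.3 the highest-cluster ratio was 14.6 for Reg3g, 1.56 for Lcn2 and 11.4 for Pigr. At resolution 1.0 it was 64.1 for Reg3g, and with 1000 variable genes 12.5 for Lcn2 and 12.1 for Pigr. Cycling cells called by a UMI of Mki67 or Top2a gave 1.15 for Lcn2, 2.23 for Pigr and 2.11 for Cyba. The settings differ in the cells they hold or in depth, and beyond that the cause was not tested. At this depth Duox2, Duoxa2 and Nos2 cannot be placed among clusters with precision, and without a second library no difference between cells can be set against the spread between cultures.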
